A study of Mus musculus with 2 samples.

Results

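The genes described here are the 10 genes of the mitotic cohesin complex and its close partners: the ring subunits Smc1a, Smc3 and Rad21, the ring-bound subunits Stag1 and Stag2, the release and regulatory factors Wapl, Pds5a and Pds5b, the loader Nipbl, and the zinc-finger protein gene Ctcf. They were chosen by name, and each of the 10 was found as a single row among the 43346 Ensembl genes of the deposited tables. The material was total RNA, depleted of ribosomal RNA, from primary CFU-E (colony-forming unit erythroid) cells, the late erythroid progenitors of bone marrow. The cells came from adult male C57BL/6J mice of 5 to 6 weeks with no stated allele or treatment, and 100 ng of RNA went into each library. There was 1 group of 2 libraries, replicate 1 and replicate 2, so no test between groups was possible. Each value is given per library, with SD over n = 2. Both libraries carry the same donor identifier in their labels but different biosample identifiers. Whether they are separate animals or pools is unclear, so the spread between them may be technical or biological.

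Cohesin is a ring that holds DNA. SMC1A and SMC3 are long coiled-coil ATPases joined at a hinge, RAD21 closes the ring, and STAG1 or STAG2 binds RAD21 as alternative subunits. NIPBL, with its partner MAU2, loads the ring and drives it to extrude DNA loops. WAPL, acting with PDS5A or PDS5B, opens the ring and releases it. CTCF bound at its motif stops extruding cohesin, which sets the borders of chromatin domains. Before mitosis the same ring, acetylated by ESCO enzymes and protected by sororin, holds sister chromatids together until separase cuts RAD21. In erythroid cells CTCF and cohesin are known to mark the ends of the globin gene loci, and the CFU-E stage is one of rapid division.

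The libraries held 62576357 and 36889542 expected counts (estimated reads per gene) for replicates 1 and 2. The 10 genes together took 0.277% and 0.272% of them. Levels are TPM (a relative transcript abundance, counts corrected for length and scaled to all RNA in the table). Nuclear protein-coding genes took 12.4% of the TPM of replicate 1 and 7.49% of that of replicate 2, and each of the 10 genes read higher in TPM in replicate 1. The erythroid part of the label was matched by all 9 erythroid markers, each reaching 10 TPM in both libraries, and these summed to 22199.5 and 10006.8 TPM. Whether the levels fit the CFU-E stage in particular was not tested. Neutrophil markers were also present, 7 of 7 at 10 TPM or more, at summed levels of 1189.7 and 599 TPM. The macrophage list summed to 123 and 76.5 TPM, the B cell list to 37.4 and 19.3, the mast cell and basophil list to 31.6 and 20.0, the megakaryocyte list to 9.83 and 3.41 with Gp1bb at 0, and the T cell list to 3.20 and 1.25. Kit was listed at 0.42 and 0.51 TPM, and the list of 4 stem and early progenitor genes that holds it summed to 2.15 and 0.99 TPM. The part of these other cells in the levels below was not tested, and in bulk RNA fewer cells of a type and less RNA per cell cannot be told apart.

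All 10 genes reached 1 TPM in both libraries, and 7 of them reached 10 TPM. Over the 21461 nuclear protein-coding genes, 23.9% reached 1 TPM in both libraries and 4.79% reached 10 TPM. Mean levels ran from 4.55 TPM for Pds5b to 54.6 TPM for Rad21, a range of 12-fold, with a median of 28.5 TPM. Rad21 was highest and Pds5a, Nipbl and Pds5b were the lowest 3 in each library. Every gene count of the 10 was deposited as an exact whole number in both libraries.

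Among the ring subunits, Rad21 (chr15:51962240-51991747, minus strand, mm10) stood at 72.2 and 36.9 TPM in replicates 1 and 2, from 39914 and 19069 counts. This kleisin, the subunit that separase cuts, ranked 185 and 255 among nuclear protein-coding genes. Smc1a (chrX:152016428-152062694, plus strand) stood at 40.6 and 27.6 TPM, from 17795 and 10612 counts. Smc3 (chr19:53600398-53645833, plus strand) stood at 28.3 and 12.2 TPM, from 11436 and 6594 counts. The order Rad21, Smc1a, Smc3 held in both libraries. Each of these pairs was separated, which here means that the same gene was higher in both libraries and that the deposited credibility intervals overlapped in neither. The deposited interval of Rad21 ran from 71.0 to 72.4 TPM in replicate 1 and from 36.04 to 37.1 in replicate 2. Rad21 was 2.55 and 3.04 times Smc3 by TPM, a mean log2 ratio of 1.48 ± 0.18 (SD, n = 2). Smc1a was 1.43 and 2.27 times Smc3, a mean log2 ratio of 0.85 ± 0.47 (SD, n = 2). The proteins of Smc1a and Smc3 form a dimer in the ring, and the RNA levels of these partners were unequal in both libraries.

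The genes of the STAG subunits, of which each ring carries a single kind, were close to each other at gene level. Stag2 (chrX:42149317-42277185, plus strand) stood at 38.8 and 25.0 TPM, and Stag1 (chr9:100597798-100959375, plus strand) at 30.6 and 19.4 TPM. Stag2 was 1.27 and 1.29 times Stag1, and the intervals did not overlap in either library. The summed STAG level was 0.96 and 1.203 times that of Rad21, below it in replicate 1 and above it in replicate 2. On transcript models with a complete coding sequence it was 0.36 and 0.41 times Rad21, below it in both. Over 50% of the TPM of each STAG gene lay on transcript models that encode no complete protein.

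Of the release factors, Wapl (chr14:34673928-34747983, plus strand) was the more abundant, at 39.2 and 28.7 TPM from 29479 and 21143 counts. Pds5a (chr5:65605721-65698273, minus strand) stood at 15.7 and 9.09 TPM, and its paralog Pds5b (chr5:150673739-150810690, plus strand) at 5.66 and 3.45 TPM. Pds5a was 2.77 and 2.63 times Pds5b, with a mean log2 ratio of 1.43 ± 0.05 (SD, n = 2). Wapl was 1.84 and 2.29 times the sum of both PDS5 genes. The loader Nipbl (chr15:8290617-8444463, minus strand) stood at 9.58 and 5.44 TPM from 13459 and 7090 counts, spread over a deposited transcript of 8815 bases. The level of Nipbl was 0.24 and 0.19 times that of the release factor Wapl, and the pair was separated in both libraries. Its partner in loading, Mau2, was lower still at 2.61 and 1.92 TPM, which put Nipbl at 3.67 and 2.83 times Mau2.

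Ctcf (chr8:105636568-105682922, plus strand) stood at 42.2 and 27.0 TPM from 12133 and 7891 counts, the highest but 1 by mean level. It was 0.58 and 0.73 times Rad21, and 0.24 and 0.33 times on transcript models with a complete coding sequence. Ctcf, Smc1a, Wapl and Stag2 followed each other with means of 34.6, 34.1, 34.0 and 31.9 TPM, and no neighbours among these 4 were separated. Ctcf was above Smc1a in replicate 1 and below it in replicate 2, and Smc1a and Wapl also changed places. The other 6 of the 9 neighbouring pairs were separated, with the same gene higher in each library.

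**Figure D1:**
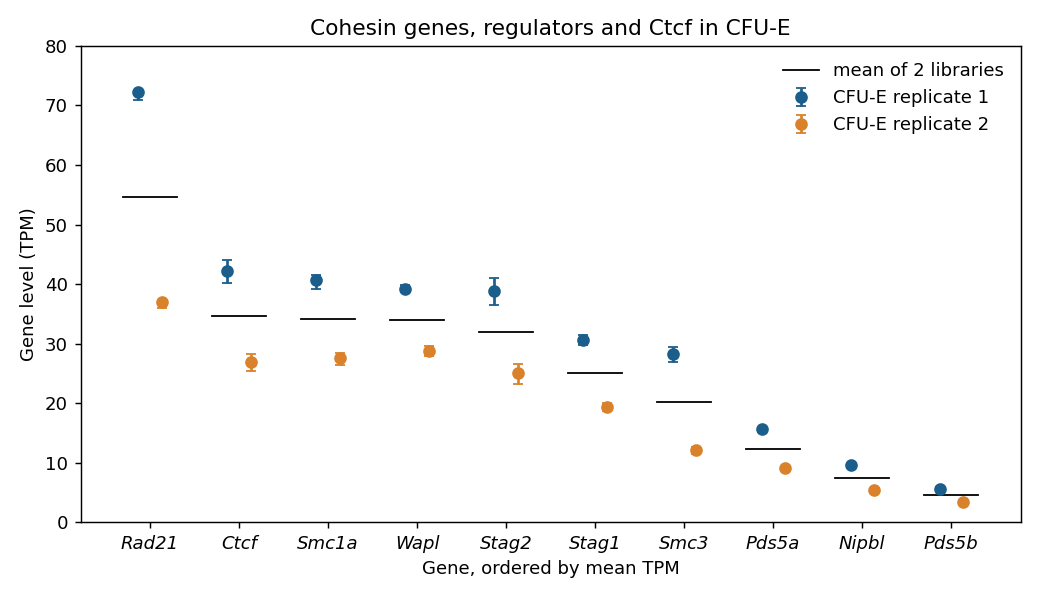
Gene level in TPM for the 10 genes, ordered by mean, with a point for each library, its deposited credibility interval as a bar and the mean of 2 libraries as a line. Rad21 leads at 72.2 and 36.9 TPM, Pds5b is lowest at 5.66 and 3.45, and each gene reads higher in replicate 1.

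The offset between the libraries in that plot is shared by all 10 genes, with a TPM of replicate 1 between 1.37 times (Wapl) and 2.33 times (Smc3) that of replicate 2. When TPM was rescaled to the summed level of nuclear protein-coding genes in each library, the 2 values came close for most genes. On that scale Pds5b stood at 45.6 and 46.1, Nipbl at 77.1 and 72.7, Pds5a at 126 and 121, and Stag1 at 247 and 259. Smc3 at 228 and 162, Rad21 at 582 and 493, and Wapl at 316 and 383 kept wider gaps.

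The gene levels sum every annotated transcript model, and the 10 genes have 56 models in the deposited tables, of which 17 carry a complete coding sequence in GENCODE M21. Rad21, Pds5a and Nipbl have a single, complete model each. The deposited length of Rad21-201 was 3604 bases against 3956 in GENCODE M21, and that of Nipbl-201 was 8815 against 9423. Which bases differ was not examined. For Ctcf, Smc1a, Stag2, Stag1 and Smc3, under 80% of the TPM lay on complete coding models in both libraries, 5 of 10 genes against 38.6% of nuclear protein-coding genes with a mean count of 1000 or more. The remainder was assigned to short fragments, retained introns and targets of nonsense-mediated decay, the pathway that destroys messages with an early stop.

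For 4 of these 5 genes a small share of the counts lay behind that TPM, since most of these models are short and TPM divides by length. Stag2-204, a partial coding model of 294 bases, had 217 and 184 counts, 1.205% and 1.71% of the gene's counts, but 40.6% and 41.5% of its TPM. Ctcf-202, a non-coding model of 528 bases, took 29.6% and 26.3% of the Ctcf TPM with 5.14% and 4.70% of the counts. The retained-intron model Ctcf-206, of 851 bases, took another 25.9% and 24.6%. Smc1a-205, a retained intron of 591 bases, took 14.2% and 16.9% of the Smc1a TPM on 348 and 287 counts. Smc1a-206, a nonsense-mediated decay model, took 10.1% and 16.8%. In each of these genes the full-length coding model held most counts: 89.2% and 83.3% in Smc1a-201, 82.8% and 84.2% in Ctcf-201, and 82.3% and 90.4% in Stag2-201.

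Smc3 differed between libraries in this respect. Its retained-intron model Smc3-202, of 471 bases, was given 11.3 and 1.5 TPM in replicates 1 and 2, from 458 and 65.6 counts. That model made up 39.7% and 12.4% of the Smc3 TPM. A further retained intron, Smc3-203, took 10.1% and 12.8%. The coding model Smc3-201 stood at 14.2 and 9.09 TPM, which is 1.56 times as high in replicate 1, while the gene-level TPM was 2.33 times as high.

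Stag1 was the exception among the 10 genes, since counts as well as TPM were spread over models that encode no complete protein. The tables list 17 models, and the 2 complete ones held 48.2% of the Stag1 counts in replicate 1 and 30.2% in replicate 2. Models of nonsense-mediated decay held 37.1% and 47.6%. The model with the highest mean share of TPM was Stag1-203, a nonsense-mediated decay model of 4800 bases, at 9.63% and 23.1%, and Stag1-208, of the same class, lay level with it at 20.5% and 12.2%. By counts the complete coding Stag1-206 held 33.3% and 9.64%, and Stag1-203 held 14.2% and 34.1%, so that the leading model differed between the libraries. No other of the 10 genes had a nonsense-mediated decay model in first place by mean share of TPM. Short reads from models that share most exons are divided by estimation, and the values of single models carry that uncertainty in addition to their intervals.

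**Figure D2:**
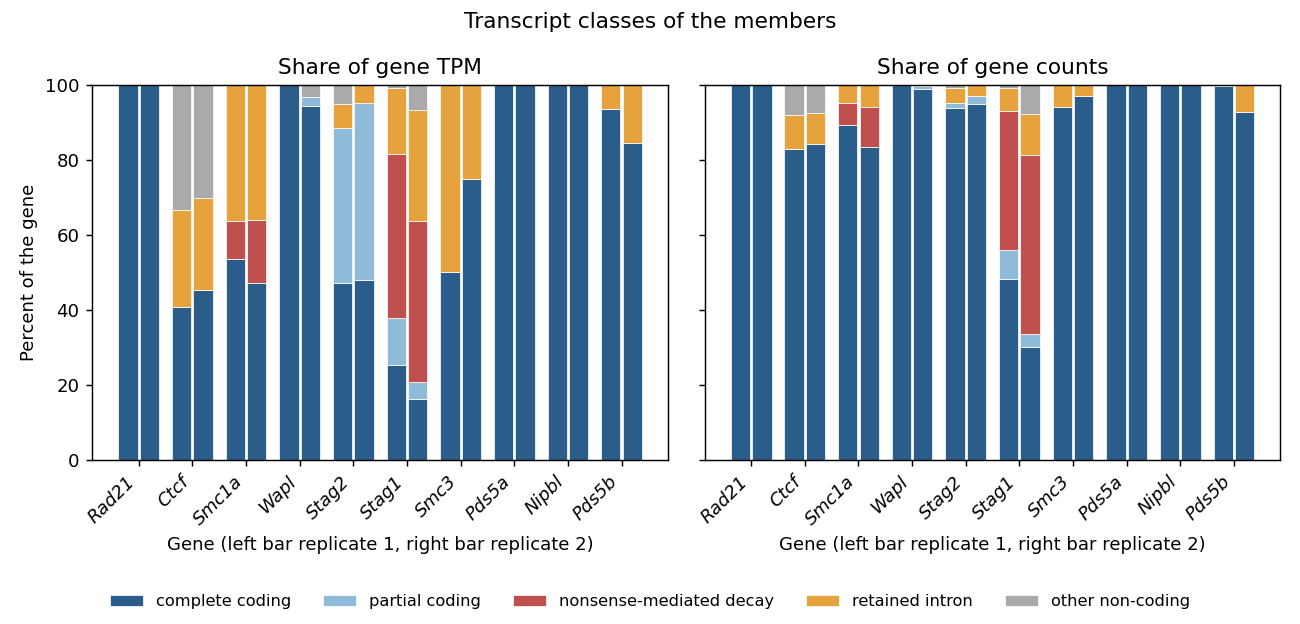
Percent of each gene's TPM (left panel) and of its expected counts (right panel) in 5 classes of transcript model, with a bar per library. Complete coding models hold over 80% of the counts of each gene but Stag1, while in Ctcf, Smc1a, Stag2, Stag1 and Smc3 they hold under 80% of the TPM.

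Restricting TPM to complete coding models changed the order of the genes. Rad21 (72.2 and 36.9 TPM) and Wapl (39.2 and 27.1) then led, ahead of Smc1a (21.7 and 12.99), Stag2 (18.3 and 12.02) and Ctcf (17.3 and 12.2). Pds5a (15.7 and 9.09) and Smc3 (14.2 and 9.09) followed with like values, then Nipbl (9.58 and 5.44). Stag1 fell from sixth place to ninth at 7.79 and 3.15 TPM, ahead of Pds5b at 5.29 and 2.92. With this restriction 5 genes, in place of 7, reached 10 TPM in both libraries. The share of all nuclear protein-coding genes that did so under the restriction was not computed. The Stag2 to Stag1 ratio rose from 1.27 and 1.29 to 2.35 and 3.82, and the Rad21 to Smc3 ratio from 2.55 and 3.04 to 5.08 and 4.06. The Smc1a to Smc3 ratio became 1.53 and 1.43, closer between libraries than before. The Pds5a to Pds5b ratio, at 2.96 and 3.11, moved little. Stag2 above Stag1, Pds5a above Pds5b and Rad21 above every other gene held on both measures in each library.

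Coding isoforms of Stag1, Stag2, Wapl and Pds5b differ by short in-frame segments. Those of Stag1, Wapl and Pds5b are printed here to show what separates the coding sequences compared below, although the models also differ outside the coding sequence and their estimates rest on all their bases. They were read from the GENCODE M21 transcripts (build GRCm38, that is mm10), plus strand, 5′ to 3′, with the alternative segment in capitals and neighbouring coding bases in lower case. In Stag1 the segment is a cassette exon of 111 bases near the end of the coding sequence (chr9:100953486-100953596), present in Stag1-206 and skipped in Stag1-201. In Wapl it is 18 bases (chr14:34694987-34695004) present in Wapl-201 and Wapl-205 and absent from Wapl-202. In Pds5b there are 2, of 6 bases (chr5:150796671-150796676) and 3 bases (chr5:150801119-150801121), both present in Pds5b-202 and absent from Pds5b-201.
Stag1 exon: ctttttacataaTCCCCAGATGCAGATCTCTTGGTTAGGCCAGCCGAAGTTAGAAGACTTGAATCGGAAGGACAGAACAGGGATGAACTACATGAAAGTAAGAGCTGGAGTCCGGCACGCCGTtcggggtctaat
Wapl segment: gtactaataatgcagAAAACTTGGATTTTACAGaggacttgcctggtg
Pds5b segment of 6 bases: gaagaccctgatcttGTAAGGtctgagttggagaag
Pds5b segment of 3 bases: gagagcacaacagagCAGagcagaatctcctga

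Stag2 has a cassette exon of the same length, 111 bases (chrX:42266366-42266476), present in Stag2-203. Aligned without gaps, the 2 STAG exons are identical at 51 of 111 bases, or 45.9%. Each of the printed segments is a multiple of 3 bases and keeps the reading frame.

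The 2 STAG genes used their exon to different degrees. Among complete coding models, Stag1-206 with the exon stood at 5.30 and 0.97 TPM against 2.49 and 2.18 for Stag1-201 without it, an inclusion of 68.0% and 30.8%. In Stag2 the model with the exon, Stag2-203, stood at 2.12 and 0.55 TPM against 16.2 and 11.5 for the models without it, an inclusion of 11.6% and 4.58%. Inclusion was higher in Stag1 than in Stag2 in each library. When every other model that covers or spans the exon was added (partial coding, decay and non-coding), Stag1 inclusion became 62.3% and 67.3%, so that the difference between the libraries was no longer seen, and Stag2 was unaffected since it has no further such models.

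Wapl was steadier. Transcripts with the 18-base segment made up 69.6% of the complete coding Wapl TPM in replicate 1 and 63.1% in replicate 2. The split between the 2 models that carry it was not steady, because Wapl-201 went from 13.9 TPM in replicate 1 to 15.4 in replicate 2 and Wapl-205 from 13.5 to 1.69. These 2 models have the same coding positions in the genome, 3600 bases in all, and differ outside them. The deposited length of Wapl-202 was 3891 bases against 4185 in GENCODE M21, and which bases differ was not examined.

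Pds5b was the least steady of the 4. Pds5b-201 held 76.5% of the gene's TPM in replicate 1 and 22.3% in replicate 2, and Pds5b-202 held 6.36% and 35.1%. The credibility interval of Pds5b-201 was 4.13 to 4.45 TPM in replicate 1 and 0.59 to 0.96 in replicate 2. Pds5b-203, a shorter coding model of 2900 bases, took 10.6% and 27.3%. Of the TPM of complete coding models that span the 6-base segment, 18.1% in replicate 1 and 73.6% in replicate 2 lay on models that hold it. For the 3-base segment, which Pds5b-203 ends short of, the shares were 7.68% and 61.1% of the TPM of Pds5b-201 and Pds5b-202. The major Pds5b model differed between the 2 libraries while the summed gene level stood at 45.6 and 46.1 on the rescaled measure and was 1.64 times as high in replicate 1 by unscaled TPM.

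**Figure D3:**
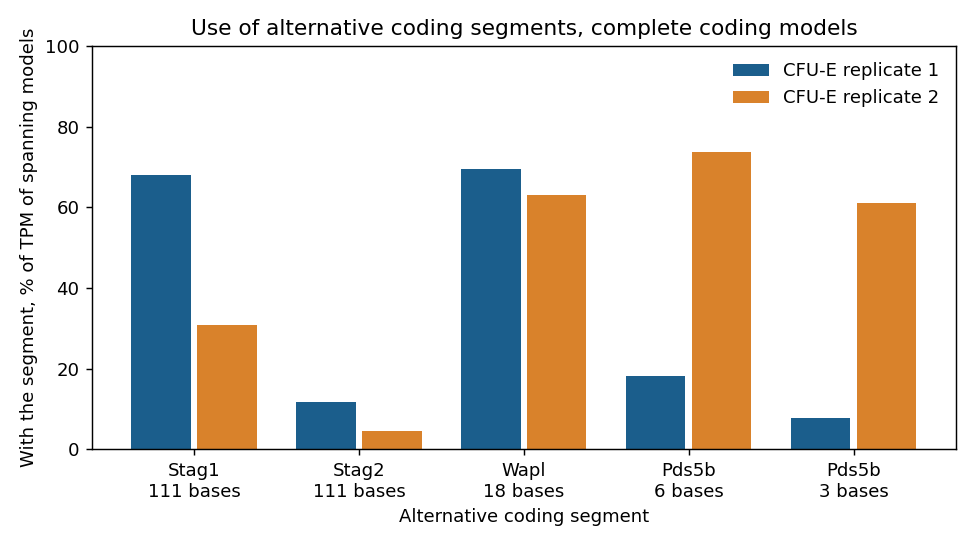
Percent of TPM on models that hold the alternative segment, among the complete coding models that span it, for 5 segments in 4 genes, with a bar per library. Wapl is at 69.6% and 63.1% and Stag2 at 11.6% and 4.58%, while Stag1 and both Pds5b segments differ widely between libraries.

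Replicate differences were also taken on counts, scaled by TMM (a trimmed mean of ratios that removes the library offset). The log2 ratio of replicate 1 to replicate 2 ran from -0.22 for Wapl to 0.39 for Pds5b, with a median of 0.08 over the 10 genes. Pds5b thus had the widest difference of the 10 by this measure. Rad21 stood at 0.37, Nipbl at 0.23, Pds5a at 0.18, Smc3 at 0.10, Stag1 at 0.06, Smc1a at 0.05, Stag2 at 0.04 and Ctcf at -0.08. None of the 10 genes differed 2-fold. Among genes with a mean count of 50 or more, 10.8% exceeded 2-fold in favour of replicate 1 and 10.3% in favour of replicate 2. Among the 3587 genes with a mean count of 1000 or more, which is the range of these 10, the shares were 1.03% and 2.37%, so a count of 0 in 10 is near this background. The median absolute log2 ratio was 0.14 over the 10 genes and 0.21 over those 3587. By the ratio of TPM, with no such scaling, Smc3 alone passed 2-fold, and Wapl and Ctcf read higher in replicate 1 rather than in replicate 2.

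**Figure D4:**
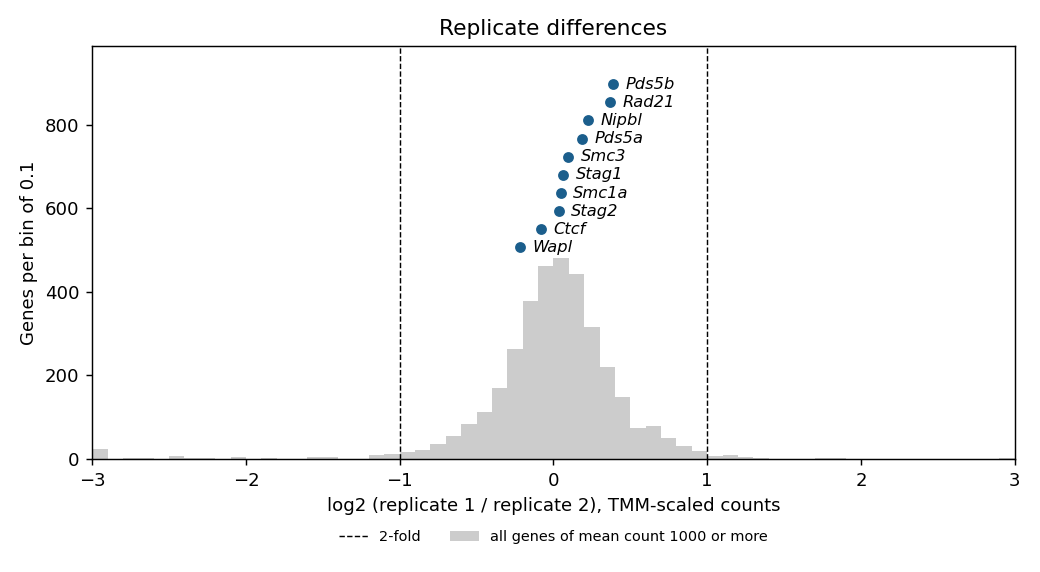
Log2 ratio of replicate 1 to replicate 2 in TMM-scaled counts for the 10 genes (points, height arbitrary) over a histogram of the 3587 genes with a mean count of 1000 or more, with values beyond the axis gathered in the end bins. All 10 genes lie between -0.22 and 0.39, inside the dashed 2-fold lines.

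The other genes of the pathway were taken as 5 lists of 30 genes in all, of which 24 reached 1 TPM in both libraries and 8 reached 10 TPM. Over all nuclear protein-coding genes the shares were 23.9% and 4.79%. Of the 9 genes for the loading partner and other regulators, 8 reached 1 TPM in both. Esco2, the acetyltransferase that locks cohesin on replicated DNA in S phase, stood at 48.3 and 27.8 TPM, and its paralog Esco1, active through the cell cycle, at 2.47 and 2.38 TPM. Esco2 was 19.5 and 11.7 times Esco1, and 9.59 and 6.24 times on complete coding models. Cdca5, which encodes sororin, stood at 7.56 and 5.09 TPM. The shugoshin gene Sgo1, whose protein guards centromeric cohesin, stood at 31.4 and 14.6, and Sgo2a at 12.6 and 8.55. Espl1, which encodes separase, stood at 7.74 and 5.02 TPM, and Pttg1, which encodes its inhibitor securin, at 3.70 and 1.92. Hdac8, the deacetylase of SMC3, was the gene of this list below 1 TPM, at 0.98 and 0.23 from 85 and 67 counts. Complete coding models gave Sgo1 13.9 and 8.22 TPM, Cdca5 4.90 and 2.90, and Hdac8 0.10 and 0.09.

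Of the 5 genes in the list of germline subunits and the Ctcf paralog, 1 reached 1 TPM in both libraries, and none did on complete coding models. Smc1b, Rad21l and Ctcfl, the meiotic or testis paralogs of Smc1a, Rad21 and Ctcf, had 0 counts in both libraries. Set against a floor of 3 counts per library, the complete coding model of Smc1a was 4518-fold and 2520-fold higher than Smc1b. That of Ctcf was 2798-fold and 1852-fold higher than Ctcfl on the same floor. These ratios allow for counting error only. For Ctcfl the deposited upper interval bounds, 0.0098 and 0.0104 TPM, lay above the floor of 0.0062 and 0.0066 TPM, so its ratios could be lower. Rec8, the meiotic kleisin, had 63 and 84 counts (0.20 and 0.30 TPM), and Rad21 was 361 and 123 times as high. Stag3 was listed at 7.57 and 4.06 TPM, but 0.46 and 0.39 TPM of that lay on complete coding models, and the model with the highest mean share was a partial one of 763 bases.

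Of the 7 fork factors tied to cohesion establishment, 6 reached 1 TPM in both libraries. Wdhd1, at 22.3 and 14.4 TPM, and Tipin, at 17.8 and 11.3, were highest. Chtf18 stood at 7.82 and 5.18 TPM, Chtf8 at 8.83 and 2.81, and Dscc1 at 3.28 and 1.45, and these 3 belong to the alternative clamp loader. Timeless, the partner of Tipin, stood at 7.22 and 3.41 TPM and the helicase gene Ddx11 at 0.65 and 0.69. On complete coding models Timeless stood at 1.16 and 1.24 TPM, Chtf18 at 1.63 and 2.16, and Wdhd1 at 8.60 and 12.5. Each of these was higher in replicate 2 on that measure.

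All 5 of the other SMC genes reached 1 TPM. The condensin subunits Smc4, at 259.6 and 170.8 TPM, and Smc2, at 52.5 and 35.2, were the highest, and Smc4 was above each of the 10 cohesin-related genes. On complete coding models Smc4 stood at 98.3 and 62.7 TPM and Smc2 at 50.9 and 35.0, so the gap between these partners narrowed. Of the SMC5/6 complex, Smc6 stood at 15.8 and 10.6 TPM and Smc5 at 5.50 and 4.28, and Smchd1, a non-canonical SMC gene of X inactivation, at 22.9 and 11.8, or 7.24 and 5.96 on complete coding models. All 4 architectural partners reached 1 TPM: Ldb1, which bridges enhancers and promoters in erythroid cells, at 8.41 and 6.22, Yy1 at 10.2 and 4.96, Maz at 9.42 and 5.56, and Zfp143 at 2.81 and 2.83. Each of these 4 was below Ctcf in both libraries. Of the 27 listed genes with a mean count of 50 or more, Rec8 differed 2-fold between replicates by TMM-scaled counts, and the other 26 did not. The log2 ratio of Rec8 was -1.11, from 63 and 84 counts. Over all genes of that mean count, 10.8% passed 2-fold in favour of replicate 1 and 10.3% in favour of replicate 2. At a mean count of 1000 or more those shares were 1.03% and 2.37%.

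**Figure D5:**
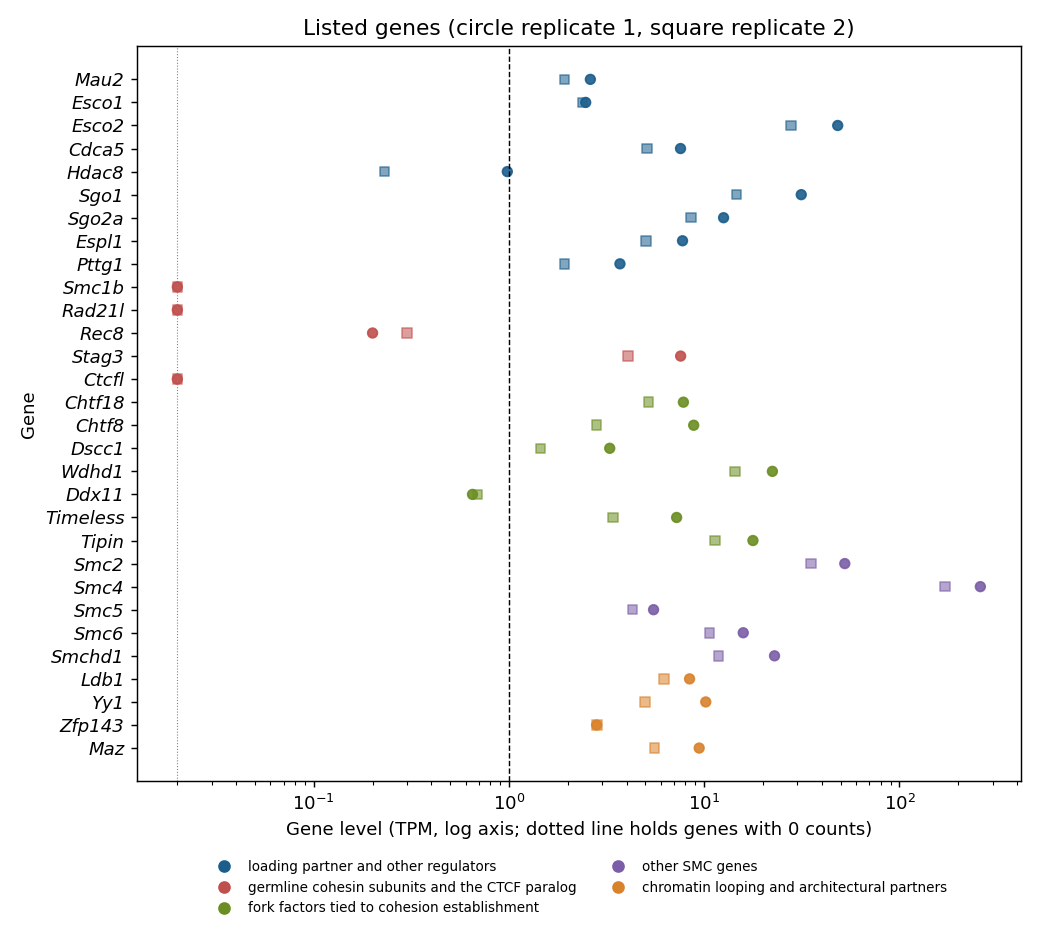
Gene level in TPM on a log axis for the 30 listed genes, coloured by list, with a circle for replicate 1 and a square for replicate 2, and the dashed line at 1 TPM. Smc4 is highest at 259.6 and 170.8 TPM, Esco2 lies far above Esco1, and Smc1b, Rad21l and Ctcfl, with 0 counts, sit on the dotted line.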

How the data were processed

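Both libraries came with gene and transcript tables on mm10 that the authors made with GENCODE M4, as named in the deposited notes. The sources used here name neither aligner nor quantifier. Per the file headers, the deposited values are expected counts, which divide reads between matching transcripts, and TPM, which the authors scaled by effective length. The deposited percent of each gene's TPM on each isoform was not used, and shares were computed here from transcript TPM. The deposited interval bounds are credibility intervals of the estimate and do not cover differences between samples.

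Names, coordinates and complete coding sequences came from GENCODE M21, matched on Ensembl identifiers, and 42462 of 43346 gene rows matched. "Complete coding" means a protein-coding transcript not tagged there as lacking its start or end. Rows that name no gene held 0 and 25 counts and were left out. Expected counts were rounded and scaled by TMM in edgeR 4.0.16, with a prior count of 0.5, and by DESeq2 1.42.0 as an alternative (R 4.3.3). No test was run, since there is 1 group. A pair is called separated where the same gene is higher in both libraries and the intervals overlap in neither.

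The members and lists were chosen with earlier results of these data known. All 10 members, every listed gene, fixed pairs and neighbours, and each member's leading transcript, next coding transcript and any at 10% or more in both libraries were to be named. Transcripts outside that rule were named after their values were seen. Alternatives covered posterior mean TPM, other scalings, thresholds and lengths, complete coding models, and leaving out each library.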

Additional observations from a re-analysis of the deposited data

How the results depend on the processing

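The median level of the 10 genes, 28.5 TPM, was 288 when scaled to nuclear protein-coding genes alone, which is another scale. It was 86.3 when counts were divided by full length in place of effective length and scaled to the same total as TPM. So the median level depended on the length correction. On complete coding models, an alternative added after seeing the data, it was 13.5. The median TPM of all models was 22.2 without replicate 1 and 34.7 without replicate 2. At a minimum of 50 TPM, 0 of the 10 genes passed in both libraries, and at a minimum of 5 TPM 14 of the 30 listed genes passed in place of 24. The shares of all nuclear protein-coding genes past these 2 minima were not computed, so neither count can be called high or low. With counts not divided by length, the log2 ratio of Rad21 to Smc3 was 1.67, of Stag2 to Stag1 0.22 and of Pds5a to Pds5b 0.90, and on complete coding models 2.18, 1.58 and 1.60. On complete coding models the order turned for Stag1 to Smc3 (log2 ratio -1.20). For Smc3 to Pds5a (mean -0.069) it turned in replicate 1 and was tied at 9.09 TPM in replicate 2. Without length the order turned for Pds5a to Nipbl (-0.40). The ratio of both STAG genes to Rad21, whose direction already differed between libraries, went from 0.11 to -1.38 on complete coding models. By the TPM ratio the median replicate difference was 0.69 on the log2 scale, and 1 gene passed 2-fold. No paired analysis was possible because there is 1 group. Posterior mean TPM and leaving out a library moved none of the counts by over 1.5 times. Posterior mean TPM turned no separated pair. Leaving out a library could not turn one, since a separated pair has the same order in each library by definition. With 2 libraries the SD is itself poorly known.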
